A study of Danio rerio with 10 samples.

Results

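The array read 45 zebrafish genes of mRNA 3-prime processing, surveillance and decay, out of 8793 genes that had a probe set of their own. They were chosen by name: a gene was taken where the platform annotation gave a probe set a single symbol that begins with cpsf, cstf, exosc, cnot, upf, smg, dcp, xrn, edc or pabp, or that is magoh, rbm8a or casc3. A gene with several probe sets was read by the brightest of them, taken over all 10 arrays. Of the 45 genes, 41 were bright enough to be tested, and cnot7, smg1, pabpc1l and pabpn1l lay under the filter on low signals.

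The samples were 10 pools of whole embryos, 1 pool per array, of the earl grey (egy) line, which carries the cz3 allele in an AB/WIK background. earl grey is a recessive defect in the zebrafish orthologue of p110, a splicing factor that the array reads as sart3. The groups were mutants on day 3 (n = 2) and their siblings on day 3 (n = 2), and mutants on day 5 (n = 3) and their siblings on day 5 (n = 3). Heterozygous parents were mated in pairs, their offspring were raised at 28 °C, and the embryos were sorted by how they looked, so the siblings, which the labels call wild type, may hold heterozygotes as well. In pools of whole embryos, fewer cells of a type and less RNA per cell cannot be told apart.

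Newly made transcripts are cut and given a poly(A) tail by the cleavage and polyadenylation complex, whose core is CPSF and CstF. Splicing leaves an exon junction complex on the mRNA, and when a ribosome stops too early upstream of such a mark, the UPF and SMG proteins send the message to nonsense-mediated decay. Ordinary turnover starts with removal of the tail by the CCR4-NOT complex, and goes on through decapping and digestion by XRN1 from the 5-prime end or by the RNA exosome from the 3-prime end, while poly(A)-binding proteins coat the tail and bear on translation and stability.

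Signals are MAS5 intensities on a linear scale, analysed as log2(signal + 64.8), which makes the changes of dim genes look smaller than they are. All differences below are log2 differences with the standard error of the limma model, and a gene passed the test where its Benjamini-Hochberg adjusted p, taken over all 11626 probe sets tested, was under 0.05. Array medians lay between 596 and 671. sart3 had signals of 462 and 648 in day 3 mutants against 2526 and 2517 in day 3 siblings, and 105, 132 and 809 in day 5 mutants against 1771, 2586 and 2036 in day 5 siblings. Mutant replicate 3 of day 5, the pool with the highest sart3 signal among mutants, correlated at 0.974 (Spearman, all probe sets) with a day 5 sibling pool and at 0.968 with the least similar pool of its own group. Its source name gives day 4, as does that of sibling replicate 2 of day 5. The strain label of sibling replicate 2 of day 3 says mutant, although its sart3 signal of 2517 was like that of its partner. That sibling pool correlated at 0.988 with its partner and at 0.981 with mutant replicate 1 of day 3. Mutant replicate 1 of day 3 correlated at 0.980 with the other day 3 mutant pool.

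The first comparison asked whether the processing and decay genes differed between mutants and siblings when both days were averaged. Of 41 tested genes, 5 rose (rbm8a, cstf3, casc3, cpsf3 and edc4), 3 fell (dcp2, cnot6a and cnot1) and 33 did not pass the test. Among all 11626 probe sets, 16.5% passed, 6.97% higher and 9.51% lower, which stand beside 12.2% and 7.32% of the processing and decay genes. Among 7287 named genes, each also read by its brightest probe set, 8.26% were higher and 9.40% lower, with a median log2 difference of -0.01. At an unadjusted p under 0.05 the shares were 29.3% of these genes and 29.8% of all probe sets. The median log2 difference was 0.02 for the 41 genes and -0.02 for all probe sets. No gene of the 41 differed by more than 0.5 in either direction. The largest rise was 0.40 for rbm8a and the largest fall was that of dcp2 at -0.46. Without the day 3 sibling pool labelled mutant, 4 genes were higher and 1 was lower. In that fit 488 of all probe sets were higher and 664 lower, against 810 and 1106 in the main fit.

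**Figure D1:**
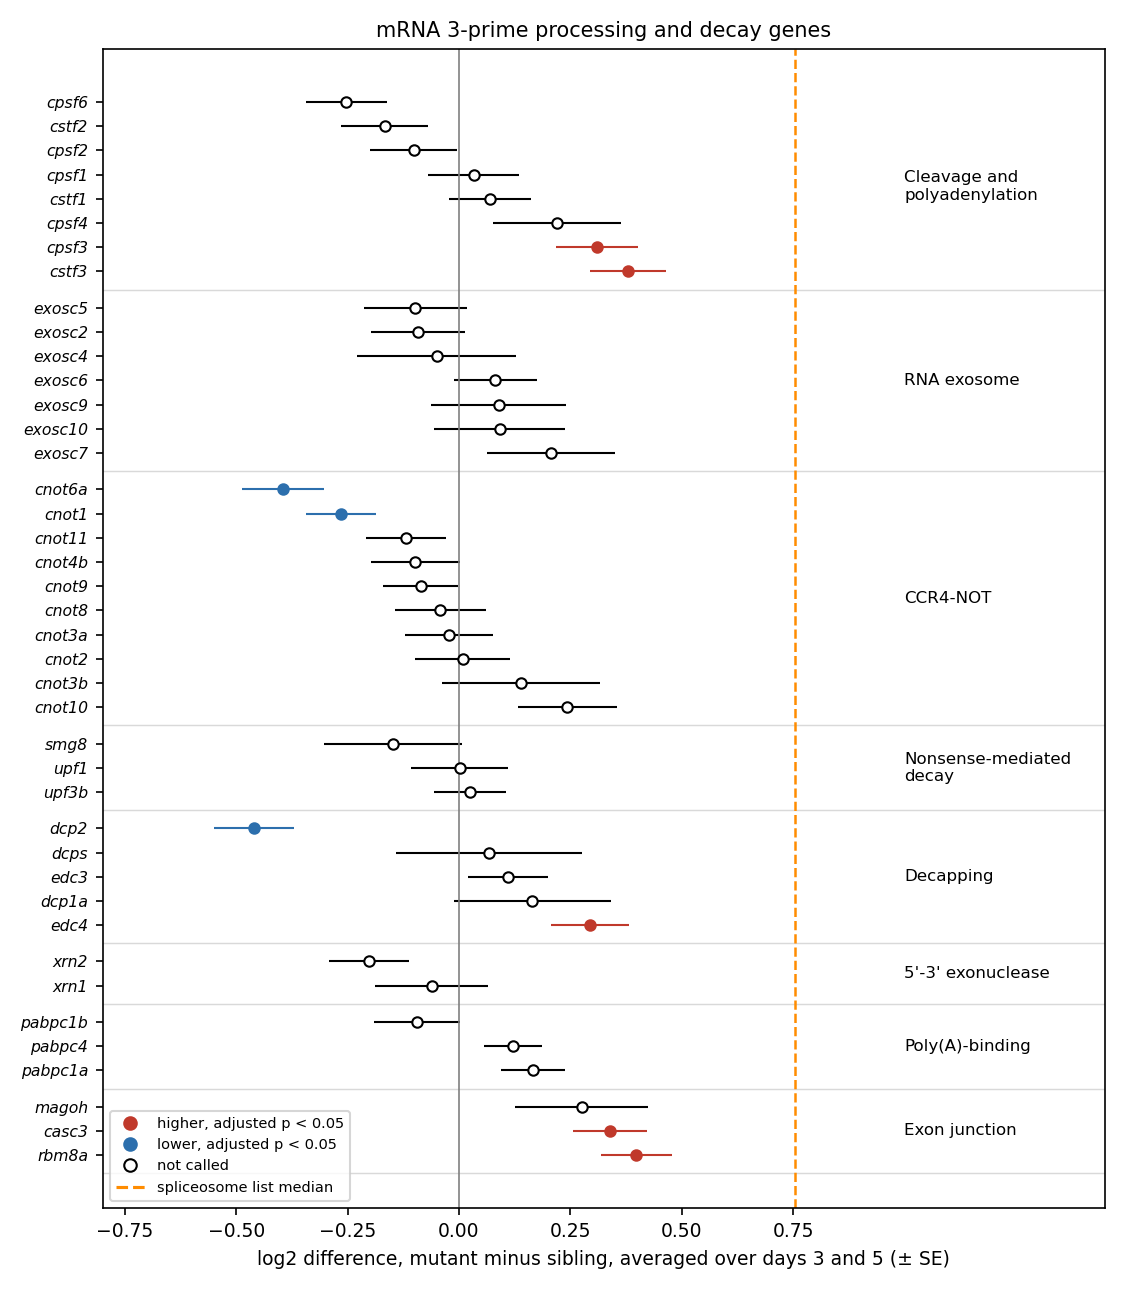
Log2 difference of mutants minus siblings, averaged over both days, for the 41 tested processing and decay genes, grouped by family. Points are the limma estimates, bars their standard errors, filled points passed the test, and the dashed line is the median of the spliceosome list at 0.76. Estimates run between -0.46 for dcp2 and 0.40 for rbm8a, all left of that line.

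The genes were set beside 67 tested genes of the spliceosome, the machine that removes introns and in which p110 acts, chosen as a comparator with earlier results on these arrays known. In that list 47 genes rose, or 70.1%, and 0 fell (2 others of the 69 on the array were too dim to test). Its median log2 difference was 0.76. snrpd3, a protein of the Sm ring, led it at 2.60 ± 0.17 (adjusted p = 1.38e-06), followed by prpf31 and prpf3, proteins of the U4/U6 particle, at 2.54 ± 0.12 (adjusted p = 1.32e-07) and 2.44 ± 0.17 (adjusted p = 1.73e-06). The highest of the 41 upper 95% bounds of the processing and decay genes was 0.60 in the averaged comparison, under the spliceosome median, and 40 of the 67 spliceosome genes lay above the highest processing and decay gene. Without the pools named above, and whichever pool was left out, between 40 and 48 spliceosome genes rose and 0 fell.

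On single days the intervals were wider. All 41 estimates lay below the spliceosome median of the day, 0.59 on day 3 and 0.71 on day 5, but the 95% intervals of 10 genes on day 3 and of 2 genes on day 5 (magoh and cnot3b) reached it. The 10 of day 3 include rbm8a, cstf3, casc3, cpsf3 and edc4.

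The profiles over the 4 groups were also set side by side. A profile here is the median, over the genes of a list, of each gene's log2 deviation in a pool from its own mean. Its group differences are not the median differences between groups given above. Relative to day 3 siblings, the spliceosome profile was 0.77 higher in day 3 mutants, 0.57 higher in day 5 mutants and 0.27 lower (-0.27) in day 5 siblings. The profile of the processing and decay genes stood at 0.003 in day 3 mutants, -0.05 in day 5 mutants and -0.09 in day 5 siblings. That of all probe sets stood at -0.03, -0.04 and -0.03. In single pools the median of the processing and decay genes kept between -0.14 and 0.04. That of the spliceosome list was 0.73 and 0.80 in the day 3 mutant pools and 0.63, 0.69 and 0.38 in the day 5 mutant pools, where the lowest value belongs to replicate 3.

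**Figure D2:**
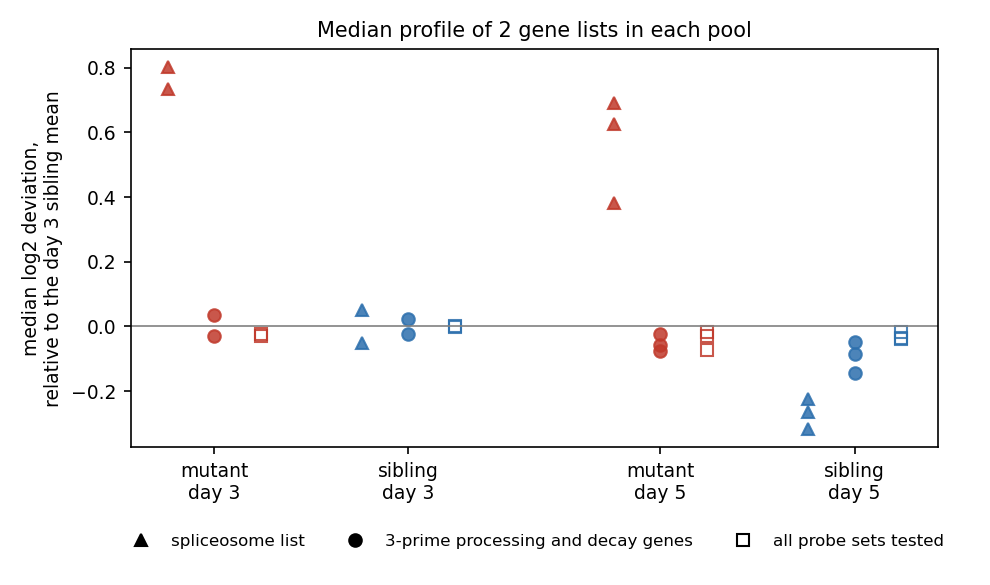
Median log2 deviation of the processing and decay genes, the spliceosome list and all tested probe sets in each of the 10 pools. Deviations are taken from each probe set's own mean, and the medians are relative to the mean of day 3 siblings. Symbols are pools, triangles for the spliceosome list, circles for the processing and decay genes and open squares for all probe sets. The spliceosome medians of the mutant pools lie between 0.38 and 0.80, while those of the processing and decay genes stay between -0.14 and 0.04 in every pool.

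In the family of cleavage and polyadenylation, 2 of 8 tested genes rose and 0 fell, and the median log2 difference was 0.05. In the same averaged comparison 6.97% of all probe sets were higher and 9.51% lower. cstf3, the CstF subunit that bridges the complex, had signals of 3354 and 3757 in day 3 mutants against 2622 and 2787 in day 3 siblings, and 3645, 3483 and 3976 in day 5 mutants against 2787, 2571 and 3187 in day 5 siblings. Every mutant pool lay above every sibling pool of its day. The averaged difference was 0.38 ± 0.09 (adjusted p = 0.00973), with nearly the same size on day 3 (0.39 ± 0.13, adjusted p = 0.185) and on day 5 (0.37 ± 0.11, adjusted p = 0.0355).

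cpsf3, the endonuclease that makes the cut, had signals of 2337 and 2475 in day 3 mutants against 1989 and 1875 in day 3 siblings, and 2241, 2113 and 1753 in day 5 mutants against 1570, 1532 and 1758 in day 5 siblings. The groups were apart on day 3 and overlapped on day 5, where mutant replicate 3 lay just under sibling replicate 3. It averaged 0.31 ± 0.09 (adjusted p = 0.0365), and with the replicate number as a block it missed the threshold (adjusted p = 0.0519).

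cpsf6, part of the cleavage factor that helps to choose the poly(A) site, was the brightest gene of the family. It had 2612 and 3198 in day 3 mutants against 3233 and 3478 in day 3 siblings, and 2774, 3251 and 3287 in day 5 mutants against 3727, 4182 and 3564 in day 5 siblings. All mutant pools lay below all sibling pools of their day, yet the averaged difference of -0.25 ± 0.09 did not pass (adjusted p = 0.0771). The other 5, cpsf1, cpsf2, cpsf4, cstf1 and cstf2, lay between -0.17 and 0.22.

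Of 14 further tested genes of cleavage and polyadenylation outside the name rule, 0 passed in either direction in the averaged limma comparison. At an unadjusted p under 0.05 there were 2 higher and 1 lower (21.4%), and the median difference of the 14 genes was 0.03. Of all probe sets 16.5% passed, and 29.8% had an unadjusted p under 0.05.

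Of the 3 exon junction genes, rbm8a and casc3 rose and magoh did not pass, with a median log2 difference of 0.34. When both days were averaged, 6.97% of all probe sets were higher and 9.51% lower. rbm8a, known as Y14, had signals of 8481 and 9874 in day 3 mutants against 6359 and 6669 in day 3 siblings, and 6718, 6581 and 5489 in day 5 mutants against 5056, 4886 and 5123 in day 5 siblings. The mutant pools lay above the sibling pools on both days. Its averaged difference was 0.40 ± 0.08 (adjusted p = 0.00506), made of 0.49 ± 0.12 on day 3 (adjusted p = 0.0691) and 0.31 ± 0.10 on day 5 (adjusted p = 0.0603).

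casc3, known as MLN51 or Barentsz, had 3947 and 3519 in day 3 mutants against 2788 and 3102 in day 3 siblings, and 2791, 3244 and 3048 in day 5 mutants against 2337, 2568 and 2214 in day 5 siblings. Here too the groups did not overlap on either day. It averaged 0.34 ± 0.08 (adjusted p = 0.0159) and had the same size of 0.34 ± 0.11 on day 5 (adjusted p = 0.0472; with the replicate block adjusted p = 0.0509).

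magoh, the partner that rbm8a binds, had 4443 and 2672 in day 3 mutants against 3497 and 3026 in day 3 siblings, and 2734, 1786 and 2730 in day 5 mutants against 1781, 1661 and 1647 in day 5 siblings. The day 3 mutant pools straddled the sibling pools, while all day 5 mutant pools lay above the siblings. Its difference of 0.28 ± 0.15 did not pass (adjusted p = 0.243).

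**Figure D3:**
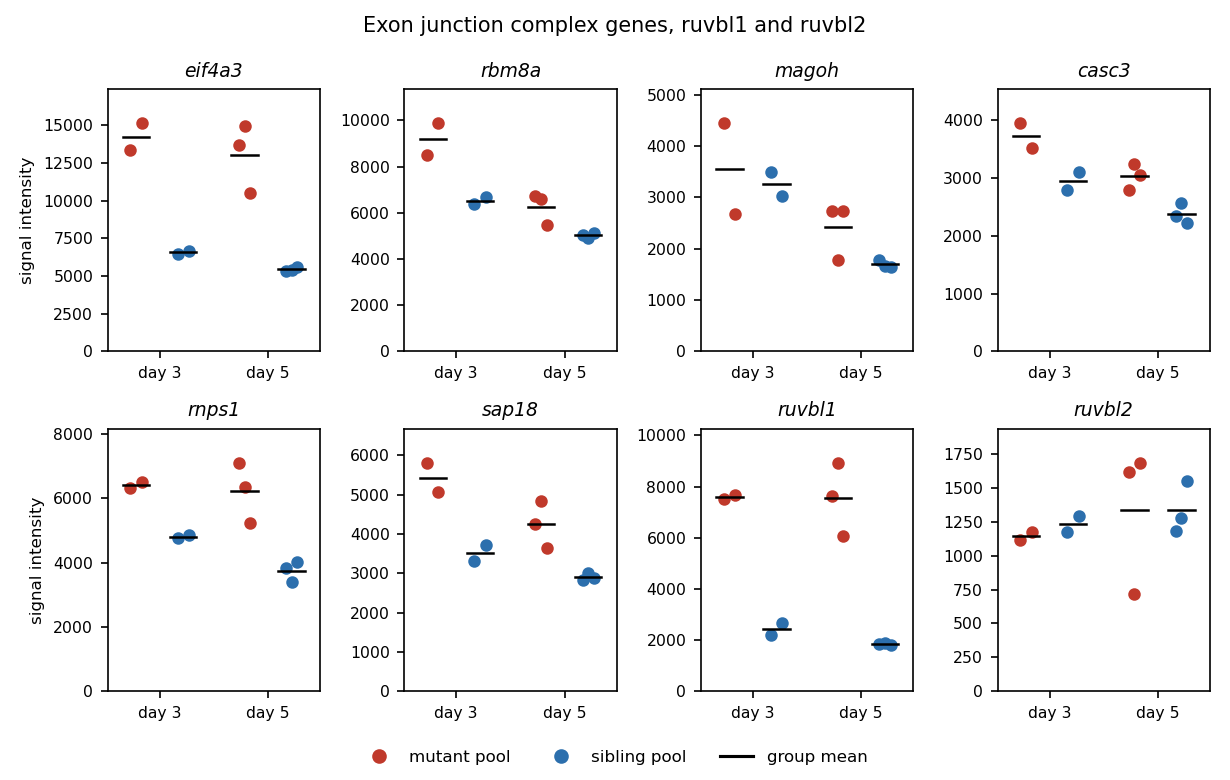
Signal intensity, on linear axes that start at 0, of 6 genes of the exon junction complex and of ruvbl1 and ruvbl2 in each pool, with mutants left of siblings for each day. Points are pools and lines are group means. Among the 6 exon junction genes eif4a3 shows the widest gap in signal, with all mutant pools at 10501 or above and all sibling pools at 6641 or below. ruvbl1 has a larger log2 difference than eif4a3. The magoh pools of day 3 mutants lie on both sides of the sibling pools.

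The remaining core subunit, eif4a3, the helicase that clamps the complex onto RNA, is outside the name rule and was read from the list of further exon junction and surveillance genes. It had 13347 and 15136 in day 3 mutants against 6490 and 6641 in day 3 siblings, and 13687, 14930 and 10501 in day 5 mutants against 5343, 5406 and 5590 in day 5 siblings. The averaged difference was 1.17 ± 0.09 (adjusted p = 5.06e-06), an estimate larger than those of rbm8a, casc3 and magoh. The difference between eif4a3 and these genes was not tested.

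Of the 13 tested genes of that list, 5 rose in the averaged comparison (ruvbl1, eif4a3, sap18, rnps1 and gspt1), 0 fell, and the median difference was 0.20. Of all probe sets, 6.97% were higher and 9.51% lower. ruvbl1, an AAA+ ATPase of many complexes that has been tied to the kinase of nonsense-mediated decay in human cells, had 7496 and 7688 in day 3 mutants against 2209 and 2665 in day 3 siblings, and 7630, 8923 and 6060 in day 5 mutants against 1845, 1889 and 1809 in day 5 siblings. It differed by 1.80 ± 0.10 (adjusted p = 4.46e-07). Its partner ruvbl2, named here after its values were seen, stood at -0.09 ± 0.19 and did not pass (adjusted p = 0.811).

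sap18 and rnps1, which sit together in a complex that joins the exon junction complex, rose by 0.57 ± 0.09 (adjusted p = 9.63e-04) and 0.56 ± 0.09 (adjusted p = 0.00115). sap18 had 5805 and 5056 in day 3 mutants against 3314 and 3723 in day 3 siblings, and 4259, 4843 and 3654 in day 5 mutants against 2841, 2999 and 2880 in day 5 siblings. rnps1 had 6323 and 6519 in day 3 mutants against 4767 and 4843 in day 3 siblings, and 7098, 6366 and 5225 in day 5 mutants against 3827, 3406 and 4028 in day 5 siblings. Neither gene's groups overlapped on either day.

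The surveillance factors themselves did not pass in any of the comparisons between mutants and siblings. upf1, the helicase at the centre of nonsense-mediated decay, had 637 and 730 in day 3 mutants against 656 and 661 in day 3 siblings, and 627, 564 and 680 in day 5 mutants against 722, 573 and 641 in day 5 siblings. The groups overlapped on both days, and the averaged difference was 0.001 ± 0.11, with a 95% interval between -0.23 and 0.24 (adjusted p = 0.995).

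upf3b, which links upf1's complex to the exon junction complex, was the brightest of them. It had 2144 and 2393 in day 3 mutants against 2219 and 2294 in day 3 siblings, and 2441, 2913 and 2555 in day 5 mutants against 2516, 2626 and 2502 in day 5 siblings. It differed by 0.02 ± 0.08, with a 95% interval between -0.15 and 0.20 (adjusted p = 0.878). smg8, a regulator of the kinase smg1, stood at -0.15 ± 0.15 (adjusted p = 0.57), and smg1 itself was too dim to test, with signals of at most 100 in all pools.

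In the CCR4-NOT complex 2 of 10 tested genes fell and 0 rose, and the median log2 difference was -0.06. The averaged shares over all probe sets were 9.51% lower and 6.97% higher. cnot6a, a deadenylase of the CCR4 type, had 1761 and 2257 in day 3 mutants against 2290 and 2547 in day 3 siblings, and 1870, 1880 and 2081 in day 5 mutants against 2656, 2805 and 3010 in day 5 siblings. All mutant pools lay below all sibling pools of their day. It averaged -0.40 ± 0.09 (adjusted p = 0.0116), with -0.27 ± 0.14 on day 3 (adjusted p = 0.422) and -0.52 ± 0.12 on day 5 (adjusted p = 0.00967).

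cnot1, the scaffold that the other subunits bind, was the brightest of the complex, with 8436 and 7185 in day 3 mutants against 9530 and 9790 in day 3 siblings, and 5391, 6138 and 6457 in day 5 mutants against 6627, 7169 and 7159 in day 5 siblings. The groups did not overlap on either day. It differed by -0.27 ± 0.08 (adjusted p = 0.0352). A second, dimmer cnot1 probe set stood at -0.17 and did not pass (adjusted p = 0.612), and cnot1 missed the threshold with arrays centred on their medians.

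The other 8 tested CCR4-NOT genes ranged between -0.12 for cnot11 and 0.24 for cnot10. cnot8, a deadenylase of the CAF1 type, stood at -0.04 ± 0.10 (adjusted p = 0.832). A dimmer cnot8 probe set stood at 0.26 ± 0.13 and did not pass either (adjusted p = 0.213). cnot7, the other CAF1 deadenylase on the array, was too dim to test.

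Averaged over both days, 1 of 5 tested decapping genes rose and 1 fell, where 6.97% of all probe sets were higher and 9.51% lower. dcp2, the enzyme that removes the cap, had 2511 and 2111 in day 3 mutants against 3240 and 3029 in day 3 siblings, and 2427, 1953 and 2393 in day 5 mutants against 3276, 3177 and 3084 in day 5 siblings. The highest mutant pool lay below the lowest sibling pool over all 10 arrays. Its difference of -0.46 ± 0.09 (adjusted p = 0.00407) was made of -0.43 ± 0.14 on day 3 (adjusted p = 0.148) and -0.49 ± 0.11 on day 5 (adjusted p = 0.0123).

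edc4, a scaffold that joins dcp2 to its activators, had 3397 and 3607 in day 3 mutants against 2358 and 2954 in day 3 siblings, and 2332, 2167 and 2098 in day 5 mutants against 1818, 1878 and 2064 in day 5 siblings. The groups did not overlap on either day, by a narrow margin on day 5. It rose by 0.29 ± 0.09 (adjusted p = 0.0381), and its second probe set stood at 0.33 without passing (adjusted p = 0.126). The activators dcp1a and edc3 and the scavenger enzyme dcps stood at 0.16, 0.11 and 0.07, and none of them passed.

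**Figure D4:**
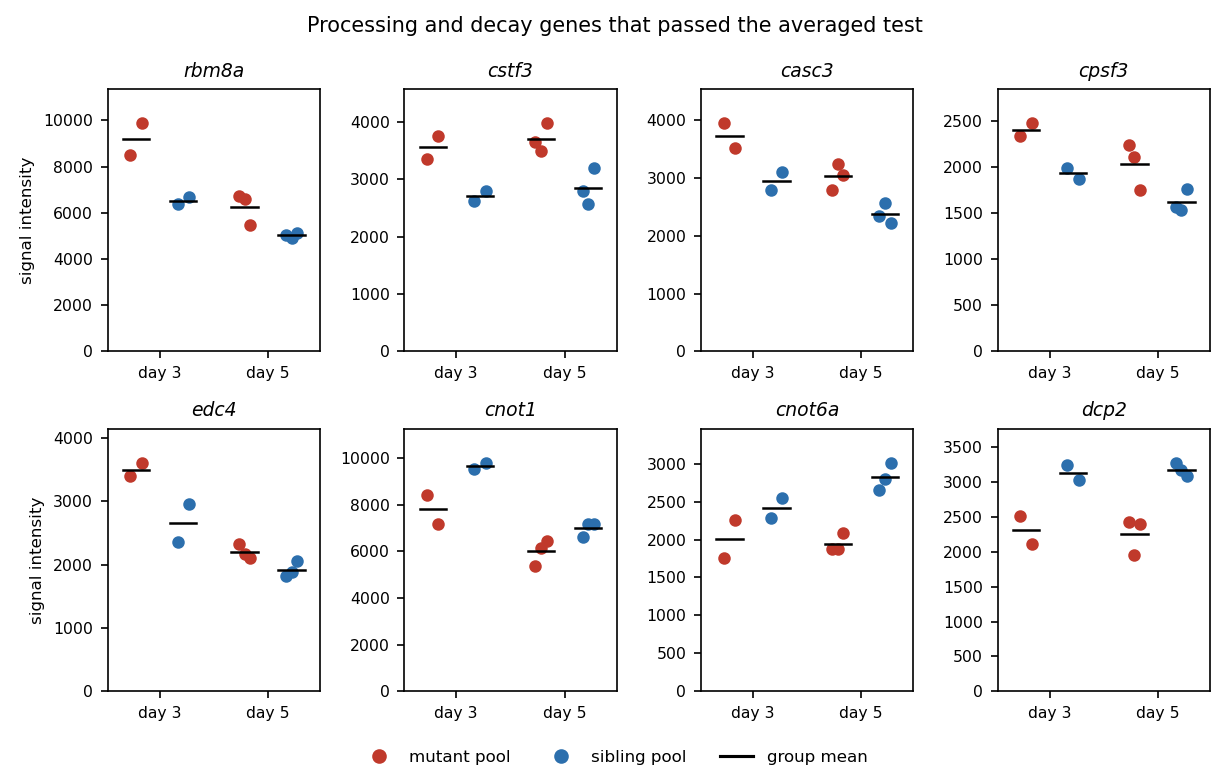
Signal intensity in each pool of the 8 processing and decay genes that passed the averaged test, on linear axes that start at 0, with mutants left of siblings for each day. Points are pools and lines are group means. The mutant pools lie above the sibling pools of their day for rbm8a, cstf3, casc3 and edc4, below them for dcp2, cnot6a and cnot1, and overlap with them on day 5 for cpsf3.

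The digesting enzymes gave no call. The 7 tested exosome genes ranged between -0.10 for exosc5 and 0.21 for exosc7, with a median of 0.08, and 0 passed on either day. exosc6, a ring subunit and the brightest of them, had 1198 and 1279 in day 3 mutants against 1251 and 1390 in day 3 siblings, and 1224, 1399 and 1211 in day 5 mutants against 994, 1026 and 1172 in day 5 siblings. It overlapped with the siblings on day 3 and lay above them on day 5, and averaged 0.08 ± 0.09 (adjusted p = 0.609).

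Of the 5-prime exonucleases, xrn2, the nuclear enzyme that also ends transcription after cleavage, was the brighter, with 1729 and 1817 in day 3 mutants against 1973 and 2113 in day 3 siblings, and 1394, 1463 and 1607 in day 5 mutants against 1856, 1811 and 1522 in day 5 siblings. The groups were apart on day 3 and overlapped on day 5, and xrn2 averaged -0.20 ± 0.09 (adjusted p = 0.153). The cytoplasmic enzyme xrn1 stood at -0.06 ± 0.13 (adjusted p = 0.797).

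The poly(A)-binding proteins held the brightest probe set of all 45 genes. That of pabpc1a, the main cytoplasmic form, read 27823 and 33536 in day 3 mutants against 29458 and 25034 in day 3 siblings, and 37904, 35976 and 37673 in day 5 mutants against 33780, 33241 and 32486 in day 5 siblings. The groups overlapped on day 3 and were apart on day 5. It averaged 0.17 ± 0.07 (adjusted p = 0.141), while pabpc4 stood at 0.12 and pabpc1b at -0.09, neither of which passed. This pabpc1a probe set is of a type that can cross-hybridize with related transcripts, so its signal may include other family members. The other pabpc1a probe sets, with mean signals of 20286 and 13169, stood at 0.08 and 0.03 averaged. On day 5 they stood at -0.04 ± 0.10 and -0.08 ± 0.12, with overlapping groups, and neither passed.

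In a list of 24 further tested decay genes, 2 rose and 1 fell in the averaged comparison, and the median was 0.03. Of all probe sets, 6.97% were higher and 9.51% lower. eri1, an exonuclease that acts on histone mRNA and small RNAs, had 822 and 1286 in day 3 mutants against 498 and 463 in day 3 siblings, and 2267, 1575 and 1314 in day 5 mutants against 583, 487 and 393 in day 5 siblings. It differed by 1.34 ± 0.17 (adjusted p = 1.79e-04), a larger estimate than that of any of the 41 genes, with no overlap on either day.

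lsm1, of the cytoplasmic ring that promotes decapping, rose by 0.44 ± 0.14 (adjusted p = 0.0448), with 401 and 510 in day 3 mutants against 244 and 342 in day 3 siblings, and 455, 451 and 361 in day 5 mutants against 346, 308 and 310 in day 5 siblings. tob1b, of the family that recruits CCR4-NOT, fell by 0.33 ± 0.09 (-0.33, adjusted p = 0.0242), with 2237 and 2033 in day 3 mutants against 2689 and 2948 in day 3 siblings, and 3214, 3364 and 3488 in day 5 mutants against 4615, 4178 and 3496 in day 5 siblings. The groups of both genes did not overlap on either day, and for tob1b the day 5 gap was narrow.

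Over the whole set, 4 of 41 genes had every mutant pool above every sibling pool on both days (rbm8a, cstf3, casc3 and edc4) and 4 had every mutant pool below (dcp2, cnot6a, cnot1 and cpsf6). Among all probe sets the shares were 8.03% above and 10.4% below. In the spliceosome list 49 of 67 genes lay above and 1 below.

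On single days fewer genes passed. On day 3, 0 of 41 genes passed in either direction in the limma test, with 2.06% of all probe sets passing, 1.18% higher and 0.886% lower, and 6 of the 41 genes (14.6%, against 14.7% of all probe sets) had an unadjusted p under 0.05, 4 higher and 2 lower. On day 5, casc3 and cstf3 rose and cnot6a and dcp2 fell, where 14.6% of all probe sets passed, 6.49% higher and 8.15% lower. Without both pools whose source name gives day 4, or without the sibling pool of day 3 labelled mutant, 0 genes were higher and 2 lower on day 5. Over all probe sets these fits gave 628 and 638 higher and 776 and 796 lower, against 754 and 947 in the main fit. The difference between the days was tested directly: 0 of 41 genes and 0% of all probe sets passed, and at an unadjusted p under 0.05 the numbers were 0 of 41 genes and 771 of 11626 probe sets.

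Likeness to the spliceosome was described by Pearson's r over the 10 arrays between each gene's log2 signal and the median spliceosome profile, with no test, since arrays share groups and scaling. The highest values among the processing and decay genes were 0.88 for cpsf3, 0.84 for casc3, 0.82 for edc3, 0.81 for rbm8a and 0.79 for cstf3. The lowest were -0.91 for dcp2, -0.87 for cnot6a and -0.79 for cpsf6. Of all probe sets, 4.86% stood at or above the r of cstf3 and 5.50% at or below that of cpsf6. The shares of the 41 genes at these cutoffs, 12.2% and 7.32%, were fixed by taking the cutoffs from the ranked genes themselves. No excess can be read from them. The median r was 0.15 over the 41 genes, with 21 positive and 20 negative, against -0.02 over all probe sets. Within the spliceosome list it was 0.91, which is high by construction, since the profile is the median of those same genes.

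The second question was how these genes differed between the ages. In siblings, day 5 against day 3, 0 of 41 genes were higher and 5 were lower (12.2%), where 18.5% of all probe sets passed, 8.39% higher and 10.1% lower. In mutants 1 was higher and 5 were lower, where 19% of all probe sets passed, 8.57% higher and 10.4% lower. The genes lower in both were xrn1, edc4, rbm8a and cnot1. Without the day 3 sibling pool labelled mutant, 0 of 41 genes passed between the sibling days. In that fit 224 of all probe sets were higher and 155 lower, against 976 and 1174 in the main fit. Without both pools whose source name gives day 4, 3 of the 41 genes were lower in each genotype. There 902 of all probe sets were lower in siblings and 908 in mutants, against 1174 and 1214 in the main fit. The median difference was -0.10 in siblings and -0.05 in mutants, against -0.03 and -0.01 for all probe sets.

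xrn1 had the largest fall in siblings. Its signals were 683, 837 and 598 in day 5 mutants against 1189 and 1180 in day 3 mutants, and 544, 772 and 736 in day 5 siblings against 1228 and 1455 in day 3 siblings. All day 5 pools lay below all day 3 pools. The day 5 minus day 3 difference was -0.71 ± 0.18 in mutants (adjusted p = 0.0168) and -0.92 ± 0.18 in siblings (adjusted p = 0.00504).

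magoh, whose signals are given above, differed between days by -0.53 ± 0.21 in mutants, which did not pass (adjusted p = 0.102), and by -0.91 ± 0.21 in siblings (adjusted p = 0.0117). The mutant pools of day 5 and day 3 overlapped and the sibling pools did not. The difference between these changes, 0.39 ± 0.30, did not pass (adjusted p = 0.854).

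edc4 fell by 0.66 ± 0.12 in mutants (-0.66, adjusted p = 0.00409) and by 0.45 ± 0.12 in siblings (-0.45, adjusted p = 0.0263). rbm8a differed by -0.55 ± 0.11 in mutants (adjusted p = 0.00644) and -0.37 ± 0.11 in siblings (adjusted p = 0.0391). Leaving out any of the 5 sibling pools ended the sibling call of rbm8a (adjusted p between 0.0711 and 0.243), as did median centring, and edc4 lost its sibling call without sibling replicate 2 of day 3 or replicate 1 or 2 of day 5 (adjusted p between 0.0735 and 0.309). cnot1 differed by -0.38 ± 0.11 in mutants (adjusted p = 0.0311) and -0.46 ± 0.11 in siblings (adjusted p = 0.0131). The dimmer cnot1 probe set stood at -0.69 in mutants (adjusted p = 0.09995) and -0.33 in siblings (adjusted p = 0.444), and did not pass. The mutant call of cnot1 was lost with median centring, without the trend and with only the groups compared. Its sibling call was lost with the median of all its probe sets. In both genotypes the day 5 pools of all 3 genes lay below the day 3 pools, as their signals above show. For them and for xrn1 this adds no support, since the same signals gave the calls. The share of all probe sets without overlap between the ages was not counted.

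In mutants alone, cnot10, a subunit of the CCR4-NOT amino-terminal module, rose by 0.58 ± 0.16 (adjusted p = 0.0227). Its signals were 1189, 964 and 1183 in day 5 mutants against 660 and 788 in day 3 mutants, and 934, 742 and 830 in day 5 siblings against 696 and 641 in day 3 siblings. The sibling difference of 0.29 ± 0.16 did not pass (adjusted p = 0.216), and the difference between the genotypes did not pass either (adjusted p = 0.854).

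exosc4, a ring subunit of the exosome, stood just past the threshold in mutants, at -0.79 ± 0.25 (adjusted p = 0.046; with the replicate block adjusted p = 0.0545). That call was lost under 14 of 22 alternatives, among them median centring, quantile normalization, array weights, no filter and any of 6 pools left out (adjusted p between 0.061 and 0.399). It had 449, 649 and 401 in day 5 mutants against 1169 and 678 in day 3 mutants, and 519, 509 and 512 in day 5 siblings against 721 and 1168 in day 3 siblings. The day 3 pools of each genotype lay far apart from each other, and the sibling difference of -0.77 ± 0.25 missed the threshold (adjusted p = 0.0518). The 4 other exosc4 probe sets also had lower estimates on day 5 in both genotypes. They stood between -1.02 and -0.57 in siblings, where 3 passed. In mutants they stood between -0.72 and -0.07, where 0 passed (adjusted p between 0.0649 and 0.834). cnot10 and exosc4 were chosen for description after their values were seen.

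**Figure D5:**
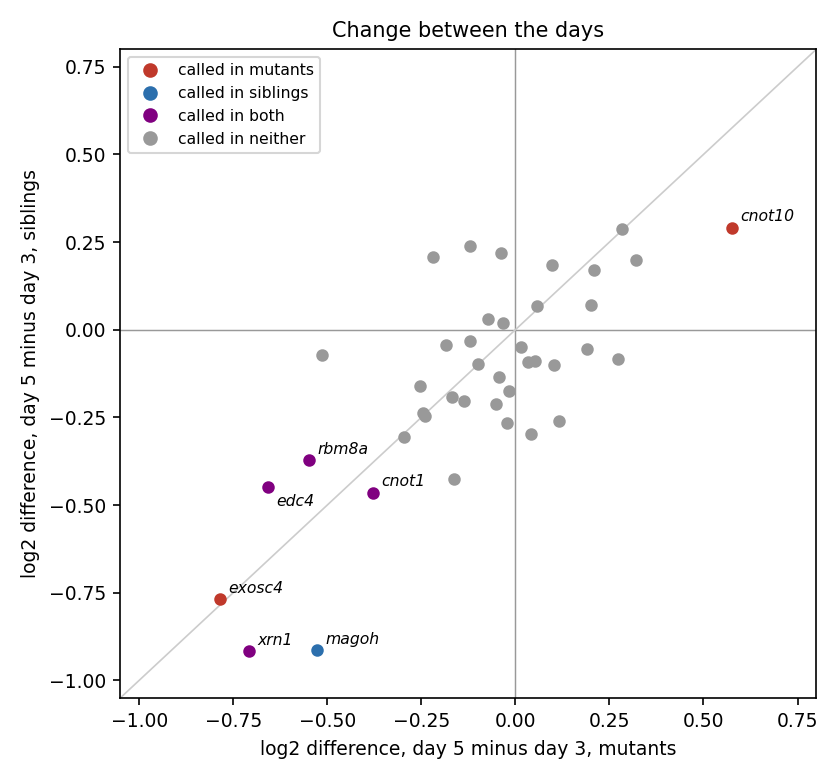
Day 5 minus day 3 log2 difference in mutants (horizontal axis) and in siblings (vertical axis) for the 41 tested processing and decay genes. Each point is a gene, coloured by the genotypes in which it passed the test, and the diagonal marks equal differences. xrn1, at -0.71 in mutants and -0.92 in siblings, and edc4, at -0.66 and -0.45, lie in the lower left, and cnot10 lies farthest right, at 0.58 in mutants.

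These calls rested on few pools. rbm8a and dcp2 kept theirs in the averaged comparison under all 21 alternatives, as did eif4a3, ruvbl1, sap18, rnps1 and eri1, and dcp2 and cnot6a kept theirs on day 5 under all 22. Leaving out 1 pool at a time took the averaged count of higher genes between 1 and 5 and of lower genes between 1 and 3. The lowest counts came without sibling replicate 1 of day 3 (1 higher) and without sibling replicate 2 of day 3, the pool labelled mutant in its strain field (1 lower). Calls over all probe sets fell as well, from 810 higher and 1106 lower in the main fit. They were 423 and 557 without sibling replicate 1 of day 3, and 488 and 664 without sibling replicate 2. Without mutant replicate 3 of day 5, 5 processing and decay genes were higher and 3 lower, where 974 of all probe sets were higher and 1319 lower. Without both pools whose source name gives day 4, 4 were higher and 3 lower, where 787 of all probe sets were higher and 1035 lower.

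cstf3 was lost without sibling replicate 1 of day 3 (adjusted p = 0.0543), casc3 without that pool or mutant replicate 1 of day 3, and cnot6a without mutant replicate 1 or sibling replicate 2 of day 3 (adjusted p of at most 0.062). cpsf3, edc4 and cnot1 were lost without any of 8, 7 and 6 of the 10 pools. cpsf3 held without mutant replicate 3 or sibling replicate 3 of day 5, edc4 without mutant replicate 3 or sibling replicate 3 of day 5 or sibling replicate 2 of day 3, and cnot1 without mutant replicate 1 of day 3, mutant replicate 2 or 3 of day 5 or sibling replicate 1 of day 5. lsm1 was lost without any of 8 pools, tob1b of 5 and gspt1 of 3. On day 5 casc3 held only without mutant replicate 1 of day 5, and cstf3 was lost without any of 6 pools.

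Between the sibling days, beside the count of 0 given above, 3 genes were lower without sibling replicate 1 of day 3 or without replicate 1 or 2 of day 5. In these fits 446, 649 and 769 of all probe sets were lower, against 1174 in the main fit. xrn1 lost its sibling call only without sibling replicate 2 of day 3 (adjusted p = 0.0877). Between the mutant days, 2 genes were lower without mutant replicate 1 of day 3 (489 of all probe sets, against 1214 in the main fit). The count was 3 if mutant replicate 1 was dropped on day 5 (1034 of all probe sets). It was also 3 without both pools whose source name gives day 4 (908 of all probe sets). There cnot1 was lost without mutant replicate 1 of either day (adjusted p of at most 0.2465), exosc4 without any of 6 pools, cnot10 without mutant replicate 1 of day 3 or mutant replicate 1 or 3 of day 5, rbm8a without mutant replicate 2 of day 3, and xrn1 without either day 3 mutant pool. edc4 kept its call between the mutant days under all 22 alternatives.

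Tissue markers also differed between mutants and siblings, and their part in these results was not tested. In the averaged comparison 11 of 11 photoreceptor genes, 10 of 12 exocrine pancreas genes and 8 of 13 neuronal genes were lower in mutants. Higher were 7 of 13 skeletal muscle genes and 2 of 6 erythroid genes. Of all probe sets, 6.97% were higher and 9.51% lower. Of 14 genes of proliferating cells 1 was higher and 2 were lower. Their summed signal lay between 47039 and 49435 in day 3 mutants against 44626 and 46724 in day 3 siblings, and between 42886 and 48509 in day 5 mutants against 44389 and 47567 in day 5 siblings. The summed neuronal signal was 105145 to 108062 in day 3 mutants against 127397 to 130542 in day 3 siblings, and 94485 to 103962 in day 5 mutants against 126212 to 133385 in day 5 siblings.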

How the data were processed

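Pools of whole embryos were measured on Affymetrix zebrafish arrays, from 7 micrograms of total RNA each. The deposited values are linear signal intensities made with MAS5, per the submitters' processing notes, of a version not given in the sources used here. Every array had a 2% trimmed mean of 1500.4, so differences are relative to the rest of an array. Of 15617 probe sets 115 controls were left out, and of the other 15502 the platform annotation gave 1 symbol to 10795, several to 135 and none to 4572. The files state no genome build and no coordinates are given. All 10 value columns carry a sample identifier and were matched by it.

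Values were taken as log2(signal + 64.8), which is 10% of the overall median of 647.8. The lowest 25% of probe sets by mean (limit 232) were dropped, leaving 11626 probe sets of 7287 named genes and of unnamed ones. limma 3.58.1 in R 4.3.3 fitted 4 group means to all 10 arrays, with eBayes and a trend of variance on mean (residual degrees of freedom 6, prior 6.51), and Benjamini-Hochberg adjustment over all probe sets at 0.05. The script was tested on simulated data. Errors of differences are standard errors; the p-values rest on spread between pools, not embryos, and the number of arrays limits the precision.

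The 45 genes and the gene lists (254 entries, 198 on the array, 6 of them by synonym) were chosen with earlier results of these data known. Genes named are those past the test in a comparison of mutants with siblings, each family's brightest gene, upf1, called day changes, and up to 4 called genes per direction of each further list. Groups follow the titles. The titles and the treatment protocol put the later stage at day 5, while the design text and 2 source names say day 4. The labels do not say that pools of the same replicate number belong together, and the main fit left the number out. On day 5 same-numbered mutant and sibling pools deviated together (r = 0.23, 0.27 and 0.23). With 2 pools per group, both day 3 pairs give the same value by construction (-0.05). The blocked value is given where the block ended a call of a named gene. Of the 45 genes 12 had several probe sets. Alternatives were the pseudocount, the filter, the scaling, the trend, array weights, the probe set rule, the block, the samples fitted and each pool left out.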

Additional observations from a re-analysis of the deposited data

How the results depend on the processing

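Of 302 counts recomputed under an alternative, 258 stayed within 1.5 times and 44 moved. The 258 include counts that were 0 in the main fit and stayed 0, which were taken as unmoved. Such counts were followed for genes lower on day 3, the difference between the days and spliceosome genes lower. Agreement at 0 says little about how steady the calls were. Of 1145 values recomputed for 53 called gene results, 1003 kept direction and call, 142 lost the call and 0 turned round. The call was kept under every alternative run in 29 of the 53 results. Among processing and decay genes these were only dcp2 averaged and on day 5, cnot6a on day 5, rbm8a averaged and edc4 between mutant days. The rest of the 29 belong to sart3, the spliceosome list and the further lists. The cause of each change was not tested. For mutants against siblings, averaged, 3 processing and decay genes were higher without the mean-variance trend (668 of all probe sets, against 810 in the main fit). On day 3, 1 was higher with array weights (234 of all probe sets, against 137). On day 5 the number higher was 1 with array weights, 4 with the lowest 50% left out, 5 with arrays centred on their medians, 1 with no filter, and 0 without the trend, with only the groups compared, or without both pools whose source name gives day 4. Over all probe sets the numbers higher on day 5, in the same order, were 671, 694, 963, 731, 619, 561 and 628. The main fit gave 754. Between the days, siblings had 1 processing and decay gene higher with array weights (1665 of all probe sets, against 976 in the main fit). They had 3 lower without the day 4 pools (902 against 1174). Mutants had 2 higher with no filter (930 of all probe sets, against 996). They had 0 higher with only the groups compared (492) or without the day 4 pools (716). In mutants 3 were lower with median centring (1080 against 1214), without the trend (1080), with only the groups compared (564) or without the day 4 pools (908). Leaving out 1 pool at a time gave 1 to 5 higher and 1 to 3 lower genes averaged, 0 to 1 higher on day 3, 0 to 2 higher on day 5, 0 to 6 lower between the sibling days, and 0 to 1 higher and 2 to 5 lower between the mutant days. With the replicate block 4 genes were higher and 3 lower averaged (868 and 1225 of all probe sets, against 810 and 1106 in the main fit). The block ended the calls of cpsf3 averaged (adjusted p = 0.0519), casc3 on day 5 (0.0509) and exosc4 between the mutant days (0.0545). It ended no other call among the genes named. Median centring moved the split of all probe sets averaged to 1082 higher and 777 lower, against 810 and 1106 as deposited, and it turned the median of the 41 genes on day 3 to 0.06, against -0.001. Fits with only the groups compared give no averaged value. Dim genes are limited by the background of the array.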

Other observations

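On day 5 alone, the further exon junction and surveillance genes held 6 higher and 1 lower of 13. Of all probe sets, 6.49% were higher and 8.15% lower on that day. gspt1 and etf1b, whose products are the release factors eRF3 and eRF1, rose by 0.62 ± 0.14 (adjusted p = 0.00926) and 0.47 ± 0.10 (adjusted p = 0.00819). gspt1 had 2226, 1636 and 1660 in day 5 mutants against 1107, 1195 and 1195 in day 5 siblings, and etf1b had 8434, 6534 and 7540 in day 5 mutants against 5200, 5281 and 5617 in day 5 siblings. On day 3 neither passed, at 0.20 ± 0.17 (adjusted p = 0.648) and -0.08 ± 0.12 (adjusted p = 0.834), and the difference between the days did not pass for either gene (adjusted p = 0.766 and 0.435). etf1b lost its day 5 call without both pools whose source name gives day 4.

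alyref, an mRNA export adaptor, was the 1 lower gene, at -0.58 ± 0.16 (adjusted p = 0.0295). It had 4098, 5503 and 7470 in day 5 mutants against 8310, 8239 and 8238 in day 5 siblings, a wide spread among mutants beside a narrow one among siblings. Leaving out any of 5 of the day 5 pools ended the call (adjusted p between 0.0685 and 0.0808), all but mutant replicate 3, the highest of the mutants. These 3 genes were chosen after their values were seen.

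Of the 4 genes under the filter, smg1 read between 22 and 100, pabpn1l between 57 and 147, pabpc1l between 22 and 225 and cnot7 between 104 and 352 over all pools. In the fit with no filter cnot7 is 1 of 2 genes higher between the mutant days. Where a gene had several tested probe sets, 0 of the 15 that were not used passed in the averaged comparison, and the probe sets of cnot8, exosc4 and upf3b had differences of opposite sign.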
